A study of Mus musculus with 2 samples.

Results

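Ccr8-expressing regulatory T cells (Tregs) were examined among tumour-infiltrating cells of mice. They were selected on UMI counts, a UMI being the molecular tag that marks 1 captured transcript. A cell had to pass a Treg gate (at least 2 UMIs of Cd3d, Cd3e and Cd3g together, at least 6 of Foxp3, Il2ra, Ikzf2 and Ctla4 together, at most 1 of Cd8a and Cd8b1, at most 3 of Lyz2, C1qa and C1qb). It also had to hold no UMI of Mki67, Top2a, Il10 or Ifng and at least 1 of Ccr8. The rule gave 308 cells of 8010 barcodes, 210 of 3905 in the WT library and 98 of 4105 in the cKO library. No member barcode occurred in both libraries. Levels of Ccr8 and of the gate genes therefore describe the selection and are not findings.

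The study compared Tregs sorted from tumours of C57BL/6 mice 8 to 12 weeks old, of genotype JMJD1CWT or with a Treg-specific knockout of Jmjd1c, a gene for a JmjC-domain protein (cKO). Each genotype has 1 library, so no difference below has a replicate check, no p-value was computed, and the intervals cover counting error only. Which tumour was used, how many animals of which sex were pooled, what drove the deletion and which exons it removed are not given in the labels. Jmjd1c, on chromosome 10, was measured at 90.0 CPM (counts scaled to a total of 1000000 UMIs over the cells of a group; 95% exact Poisson interval 77.9 to 103) in WT members. In cKO members its level was 52.5 CPM (38.2 to 70.5). The libraries count transcript 3' ends, and whether these lie in the deleted part is not known, so the level does not check the label. Xist, a long RNA made from the silenced X chromosome of females, stood at 842 CPM in WT members and had 0 UMIs in cKO members. Genotype, sex and library cannot be told apart.

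CCR8 is a chemokine receptor whose best-known ligand is CCL1. In tumours it is known as a surface marker of activated effector Tregs, and antibodies against it are studied as a way to deplete them. Tnfrsf9 encodes 4-1BB, a costimulatory receptor of the TNF receptor family induced by T cell receptor signals, and Il1r2 encodes the decoy receptor for interleukin 1. The last pair often accompanies Ccr8 in tumour Tregs.

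Ccr8 transcripts were sparse. Of the 210 WT members 170 held a single Ccr8 UMI, 34 held 2 and 6 held 3 or more, with 5 as the highest. Of the 98 cKO members 87 held 1, 10 held 2 and 1 held 3. Members lay just inside the rule in most cases, since 1 UMI is its lower limit. The gate sum of 6 was met exactly by 0 WT and 1 cKO member, and 1 WT cell with Ccr8 missed the gate by 1 UMI. Among Ccr8-positive Tregs of the gate (464 WT and 270 cKO), 221 and 101 were left out because they held Mki67 or Top2a. Il10 left out 22 WT and 86 cKO cells, and Ifng left out 44 and 45, with some cells counted under more than 1 of these.

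Among Tregs that met every other condition, 12.9% of 1629 WT cells (95% exact Clopper-Pearson interval 11.3 to 14.6) and 7.38% of 1328 cKO cells (6.03 to 8.92) held a Ccr8 UMI. Eligible cells were deeper in WT (median 7342 UMIs) than in cKO (median 5768). After each cell was thinned to 4100 UMIs the shares were 6.51% (5.33 to 7.85) of 1552 WT and 4.76% (3.58 to 6.2) of 1092 cKO cells, and these intervals overlapped. Thinning left out 77 WT and 236 cKO cells as too shallow. Summed over the eligible cells, Ccr8 stood at 18.2 CPM (16 to 20.5) in the WT library. In the cKO library it stood at 12.0 CPM (9.87 to 14.5). The cKO level was 66.1% of the WT level (52.4 to 83.0). Over the whole gate, cycling and cytokine-positive cells included, it was 85.7% (74.3 to 98.8). Thinned shares over the whole gate were 6.43% (5.59 to 7.34) in WT and 4.68% (3.88 to 5.58) in cKO. They were 6.75% (5.42 to 8.27) and 3.87% (2.60 to 5.51) of Tregs with Mki67 or Top2a, and 7.40% (4.75 to 10.9) and 4.75% (2.74 to 7.60) of those with Ifng. Of Tregs with Il10 they were 2.62% (1.06 to 5.33) in WT and 5.46% (3.89 to 7.42) in cKO, with overlapping intervals.

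Detection followed depth within each library. In WT the share with Ccr8 went from 4.52% of 221 cells under 5000 UMIs to 20.8% of 288 cells with 10000 to under 15000 and 21.1% of 142 cells with 15000 or more. In cKO it went from 4.63% of 475 cells to 12.4% of 121 and 15.2% of 66 in the same bins. The libraries were alike under 5000 UMIs, and the WT interval lay above the cKO interval from 5000 to under 7500 UMIs (8.62 to 13.7 against 3.88 to 8.25). From 7500 to under 10000 UMIs the shares were 11.8% of 348 WT cells (8.59 to 15.6) and 12.6% of 182 cKO cells (8.18 to 18.4). Thinning members themselves to 4100 UMIs left Ccr8 in 48.8% of 207 WT and 59.1% of 88 cKO cells. Cells called Ccr8-undetected can therefore carry Ccr8 transcripts that were not captured.

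**Figure D1:**
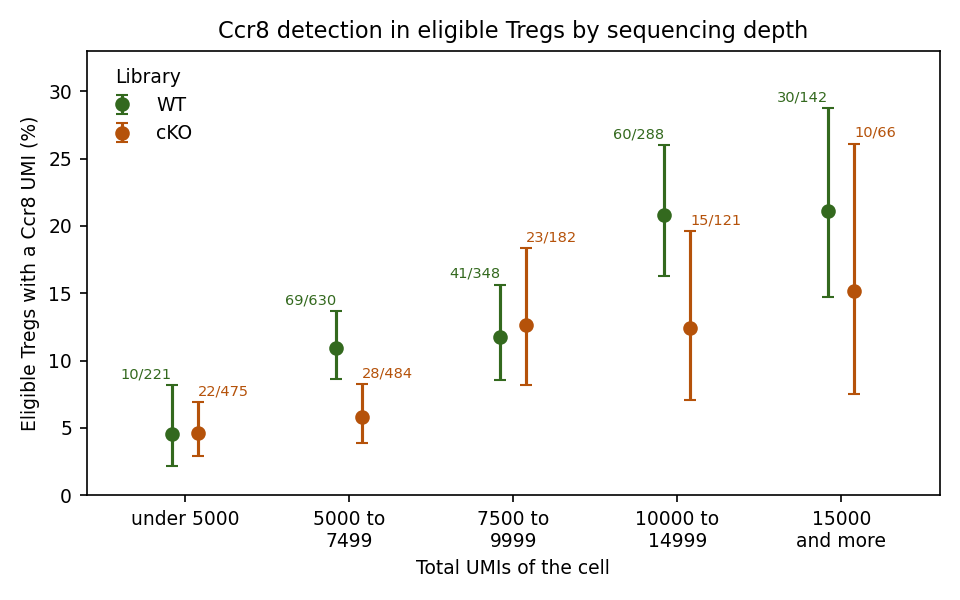
Share of eligible Tregs with at least 1 Ccr8 UMI (percent, vertical axis) by the total UMIs of the cell (horizontal axis), for the WT and cKO libraries. Points are shares, bars are 95% exact Clopper-Pearson intervals, and the fractions are cells with Ccr8 over all cells in the bin. The share is higher in deeper cells of both libraries, from 4.52% to 21.1% in WT and from 4.63% to 15.2% in cKO.

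Free RNA in droplets can leave a UMI in a cell that does not express the gene. In cells passing a macrophage gate, which should lack Ccr8, 0 of 44 WT cells held it (3 counts of the total, the limit set on a count of 0, would be 6.82%, and the exact upper bound is 8.04%) and 1 of 216 cKO cells did (0.463%). Those cells were deeper than Tregs, with medians of 15652.5 and 12944 UMIs. In cells passing a CD8 T cell gate (medians 18514 and 10635 UMIs) the thinned share was 1.23% (0.150 to 4.39) in WT and 0.815% (0.168 to 2.36) in cKO, below the 6.51% and 4.76% of eligible Tregs.

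Because deeper cells are more likely to be members, each member was compared with the 3 nearest Ccr8-undetected Tregs of its own library by total UMIs. This gave 630 WT cells (median 8933 UMIs, against 8922 in members) and 294 cKO cells (7291.5 against 7275). The median share of mitochondrial UMIs was 2.37% in WT members against 2.39% in matched cells, and 2.43% against 2.41% in cKO. Log2 ratios below are log2 of member CPM plus 5 over matched CPM plus 5.

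The other genes that mark the label hardly separated members from matched Tregs. Tnfrsf9 was present in 100% of members of both libraries, and in 99.8% of WT and 95.6% of cKO matched cells. Its level was 2085 against 2002 CPM in WT (log2 ratio 0.06) and 2667 against 2453 CPM in cKO (0.12). Tnfrsf9 thus marked the compared Tregs as a whole. Members with 2 or more Ccr8 UMIs differed by library in Tnfrsf9. The 40 such WT cells averaged 1667 CPM (1558 to 1781), less than the 2002 CPM of all matched cells. Over cells matched to those 40, however, the log2 ratio was -0.02. The 11 such cKO cells averaged 3358 CPM (3015 to 3731), with a log2 ratio of 0.56 over their own matched cells. Il1r2 was at 253 CPM in both WT groups (log2 ratio -0.00), with 52.9% of members and 49.2% of matched cells positive. In cKO it was at 304 CPM in members and 169 in matched cells, a ratio of 1.80 (95% exact binomial interval 1.54 to 2.11). After thinning, Il1r2 was found in 42.5% of WT members (35.7 to 49.6) against 35.3% of matched cells (31.6 to 39.2), and in 36.4% of cKO members (26.4 to 47.3) against 20.5% (15.8 to 25.8). In the 11 cKO members with 2 or more Ccr8 UMIs, Il1r2 was at 96.5 CPM (46.3 to 177), from 10 UMIs in 2 cells. That interval includes the 169 CPM of matched cells, and the log2 ratio over cells matched to those 11 was -1.10. The 40 WT members with 2 or more Ccr8 UMIs had Il1r2 at 278 CPM (235 to 327), with 70% positive. Over cells matched to those 40 the log2 ratio was -0.20. The cells are therefore described here by Ccr8 detection, since Il1r2 went with it in 1 library and Tnfrsf9 was near-universal with or without it.

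Few genes differed by 1.5-fold from matched Tregs in both libraries. Of 4920 genes averaging 20 CPM or more over the 4 groups of cells, 8 were at least 1.5-fold higher (0.163%) and 27 lower (0.549%) in WT members. In cKO, 105 were higher (2.13%) and 100 lower (2.03%). The cKO comparison rests on fewer cells, with 837803 UMIs in members against 2200444 in WT members. Only 2 genes were higher in both libraries (0.0407%), Il13 and Cxcl10, and 8 were lower in both (0.163%): Il1b, Spp1, Cxcl16, Fcer1g, Tyrobp, Ccl5, Ly6c2 and Cxcl2. The median log2 ratio of all these genes was 0.02 in each library.

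**Figure D2:**
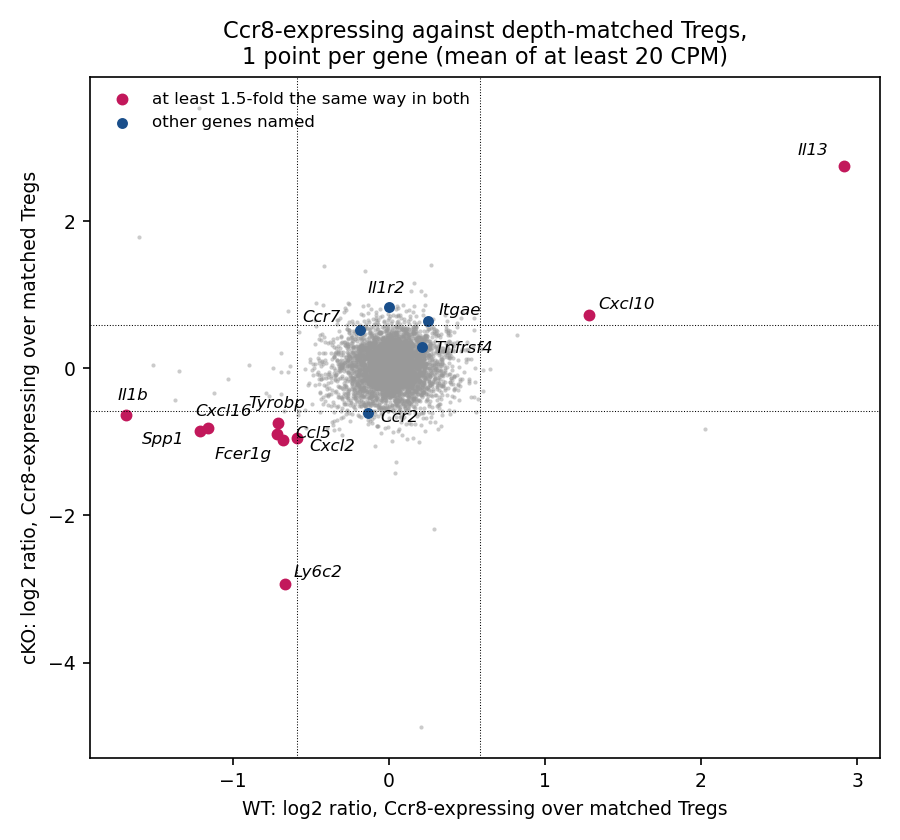
Log2 ratio of Ccr8-expressing over depth-matched Tregs in WT (horizontal axis) and cKO (vertical axis), 1 grey point per gene averaging 20 CPM or more. Red points are the 10 genes at least 1.5-fold apart the same way in both libraries, blue points are other genes discussed, and dotted lines mark 1.5-fold. Il13 and Cxcl10 lie alone at the upper right, and the 8 genes lower in members lie at the lower left.

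Both higher genes owed their sums to single cells. Il13, the gene of a type 2 cytokine, had 59.1 CPM in WT members against 3.50 in matched cells and 39.4 against 1.59 CPM in cKO. It was found in 4 of 210 WT members, and 1 of these cells held 111 of the 130 UMIs (85.4%). In cKO 2 of 98 members held it, 1 with 32 of 33 UMIs (97.0%). Cxcl10, the gene of an interferon-induced chemokine that binds CXCR3, was at 318 against 127 CPM in WT and 184 against 110 CPM in cKO. A single member gave 61.3% of its WT UMIs and another 51.3% of its cKO UMIs. The share of cells with Cxcl10 was 17.1% of members and 14.8% of matched cells in WT, and 19.4% and 17.3% in cKO. With the highest cell of each group left out, the log2 ratios of Cxcl10 were 0.12 in WT and -0.06 in cKO, and those of Il13 were 1.13 and 0.20. That step takes a larger share of UMIs from members than from the more numerous matched cells. It moved the median log2 ratio of all genes from 0.02 to -0.01 in WT and from 0.02 to -0.04 in cKO.

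**Figure D3:**
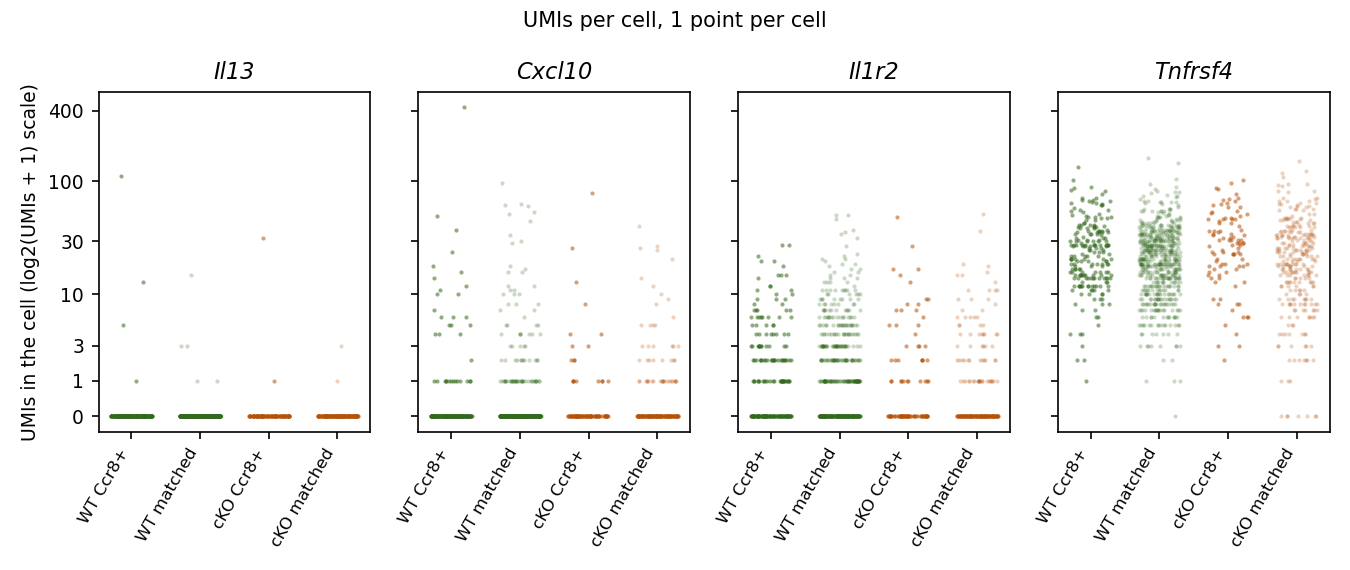
UMIs of Il13, Cxcl10, Il1r2 and Tnfrsf4 in each cell (vertical axis, log2 of UMIs plus 1, labelled in UMIs), 1 point per cell, for Ccr8-expressing (Ccr8+) and matched Tregs of each library. A single WT cell with 111 Il13 UMIs and another with 429 Cxcl10 UMIs stand far above the rest, while Tnfrsf4 is spread over nearly all cells of every group.

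The genes lower in members are mostly known from myeloid, natural killer or cytotoxic cells. Il1b encodes interleukin 1 beta, Spp1 the secreted protein osteopontin, and Cxcl2 and Cxcl16 encode chemokines. Fcer1g and Tyrobp encode signalling adaptors of myeloid and NK cell receptors, and Ccl5 encodes a chemokine of cytotoxic T and NK cells. Il1b stood at 64.1 against 216 CPM in WT (log2 ratio -1.68) and 366 against 570 CPM in cKO (-0.63). A single cKO member held 89.9% of the Il1b UMIs, and without the highest cell of each group the log2 ratios were -2.27 and -3.50. Tyrobp was at 38.6 against 66.4 CPM in WT and 88.3 against 151 CPM in cKO (-0.71 and -0.74). It was found in 4.76% of WT members and 4.92% of matched cells, and in 8.16% and 12.2% in cKO. Ccl5 was at 266 against 428 CPM in WT and 206 against 411 CPM in cKO, with shares of 43.8% and 44.0% of WT cells and 26.5% and 39.1% of cKO cells. Spp1 was at 31.4 against 79.0 CPM in WT and 2.39 against 8.37 CPM in cKO, the latter with a ratio interval of 0.0324 to 1.17 that includes 1.

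Of the marker lists of other cell types, those of dendritic, NK and CD8 T cells had lower sums in members of both libraries. The 8 dendritic cell markers summed to 53.6 CPM (44.4 to 64.2) in WT members against 109 (101 to 117) in matched cells, and to 13.1 (6.55 to 23.5) against 67.0 (57.2 to 77.9) in cKO. The 6 NK markers summed to 40.0 against 67.9 CPM in WT and 88.3 against 167 CPM in cKO, mostly through Tyrobp, and the NK-defining Ncr1 and Klrb1c were at 0 in members of both libraries and in WT matched cells. The 10 macrophage markers summed to 24.1 (18 to 31.5) against 29.2 (25.2 to 33.6) CPM in WT and 57.3 (42.2 to 76.0) against 78.5 (68.0 to 90.3) in cKO, so the intervals overlapped in both, and Adgre1 was at 0 in both sets of members. This list holds 3 genes of the gate. The 6 CD8 markers summed to 776 against 995 CPM in WT and 636 against 924 in cKO, and Eomes was at 0 in members of both libraries. Of these sums Nkg7, of cytotoxic granules, and Ccl5 made up 765 and 985 CPM in WT and 618 and 905 CPM in cKO, and 2 of the 6 are gate genes. B and plasma cell, erythroid, endothelial and epithelial lists had overlapping intervals in both libraries, and the endothelial sum was 45.0 against 41.0 CPM in WT and 16.7 against 26.3 CPM in cKO. Neutrophil, mast cell, fibroblast and melanocytic lists held at most 6 UMIs in any group. The part of other cells' RNA in the lower values was not tested. Where members and matched cells were restricted to those with no UMI of Lyz2, C1qa, C1qb, Cd8a or Cd8b1, Fcer1g in WT (0.08) and Il1b in cKO (0.51) were no longer lower. In that setting 4 of the 8 genes, Cxcl16, Cxcl2, Ly6c2 and Spp1, stayed at least 1.5-fold lower in both libraries.

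Tnfrsf4 and Tnfrsf18, costimulatory receptor genes of the TNF receptor family, were abundant and slightly higher in members. Tnfrsf4, the gene of OX40, was at 2721 CPM in WT members against 2348 in matched cells, a ratio of 1.16 (1.12 to 1.19). In cKO it was at 3829 against 3126 CPM, a ratio of 1.22 (1.18 to 1.28). Tnfrsf18, the gene of GITR, had ratios of 1.09 (1.05 to 1.13) in WT and 1.08 (1.01 to 1.15) in cKO. All these differences were under 1.5-fold. Without matching, the cKO log2 ratio of Tnfrsf18 went from 0.11 to -0.02. Tnfrsf4 was at 2718 CPM in WT members with 1 Ccr8 UMI and 2732 in those with 2 or more, and at 3660 and 5028 CPM in cKO. Of the 11 measured members of the TNF receptor family list, 5 were higher and 2 lower in both libraries, with medians of 0.12 in WT and 0.01 in cKO. Cd27, another costimulatory receptor of the list, was lower in both (-0.11 and -0.40). Icos, a costimulatory receptor of the CD28 family, went apart by little, with log2 ratios of 0.02 in WT and -0.17 in cKO.

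Of the 17 measured effector transcription factors, 6 were higher and 3 lower in both libraries, with medians of 0.07 in WT and -0.02 in cKO. Rel, the NF-kB subunit c-Rel, was at 549 against 463 CPM in WT (ratio 1.19, 1.11 to 1.27) and 295 against 216 CPM in cKO (1.37, 1.17 to 1.59). Nfkb1, the gene of the p50 precursor, had ratios of 1.09 (1.01 to 1.18) and 1.26 (1.12 to 1.41). With at least 2 Ccr8 UMIs per member its WT log2 ratio went from 0.12 to -0.14. Batf, an AP-1 family factor of effector Tregs, had 217 against 186 CPM in WT and 383 against 333 in cKO. Log2 ratios were 0.21 in WT and 0.30 in cKO for Rora, and 0.16 and 0.50 for Id2. With at least 2 Ccr8 UMIs per member the cKO log2 ratio of Rora was -0.20. Rora encodes a nuclear receptor and Id2 an inhibitor of E proteins. Maf, a factor tied to Il10 expression, was lower in both (-0.22 and -0.28). Members and matched cells alike were selected for having no Il10 UMI. Irf4, a partner of BATF, was low and did not separate the groups (ratios 1.32, 0.897 to 1.92, and 0.977, 0.519 to 1.75).

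Of the 20 NF-kB subunits, inhibitors and targets, 9 were higher and 3 lower in both libraries, with list medians of 0.08 in WT and 0.07 in cKO. Of 17 T cell receptor response genes, 11 were higher and 2 lower in both, with medians of 0.09 and 0.18. Without matching the WT median of the last list was -0.09, and with at least 2 Ccr8 UMIs per member its cKO median was -0.14. The immediate early genes Fos and Jun were the 2 lower ones, with log2 ratios of -0.32 and -0.35 in WT and -0.83 and -0.49 in cKO. Of the 18 tumour Treg genes, 7 were higher and 1 lower in both, with medians of 0.06 and 0.12. With at least 2 Ccr8 UMIs per member the NF-kB median in WT was -0.10 and the tumour Treg median in cKO -0.06. Among all 8120 genes averaging 5 CPM or more, 2220 were higher and 1979 lower in both, and the medians were 0.01 in WT and 0.00 in cKO. Leaving out the gate genes took 1 gene from the tumour Treg list and 4 of 14 from the Treg core list.

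Genes of quiescence and recirculation lay on the other side. Of 17 measured members 9 were lower in both libraries and 0 higher in both, with medians of -0.18 in WT and -0.36 in cKO. In single libraries 5 of the 17 were higher in WT and 3 in cKO. Ccr7, a gene of this list, was lower in WT and higher in cKO (log2 ratios -0.18 and 0.52). Klf2, a factor that drives expression of exit receptors, was at 78.2 against 95.4 CPM in WT (ratio 0.819, 0.688 to 0.971) and 162 against 252 CPM in cKO (0.644, 0.531 to 0.776). S1pr1, the receptor that guides lymphocytes out of tissue, was at 7.73 against 18.4 CPM in WT (0.420, 0.237 to 0.701). In cKO it was at 19.1 against 27.9 CPM, with an interval that includes 1 (0.684, 0.371 to 1.19). Restricting members to those with at least 2 Ccr8 UMIs took the WT log2 ratio of Klf2 from -0.27 to 0.18 and that of S1pr1 from -0.88 to -0.11. In cKO the same step took them from -0.62 to -0.69 and from -0.45 to -1.07. Tcf7, the gene of the factor TCF1, was at 2.27 against 6.53 CPM in WT and 4.77 against 18.3 CPM in cKO, found in 1.90% and 2.04% of members. Bcl2, a survival factor, was at 19.5 against 23.1 CPM in WT and 3.58 against 22.3 CPM in cKO.

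**Figure D4:**
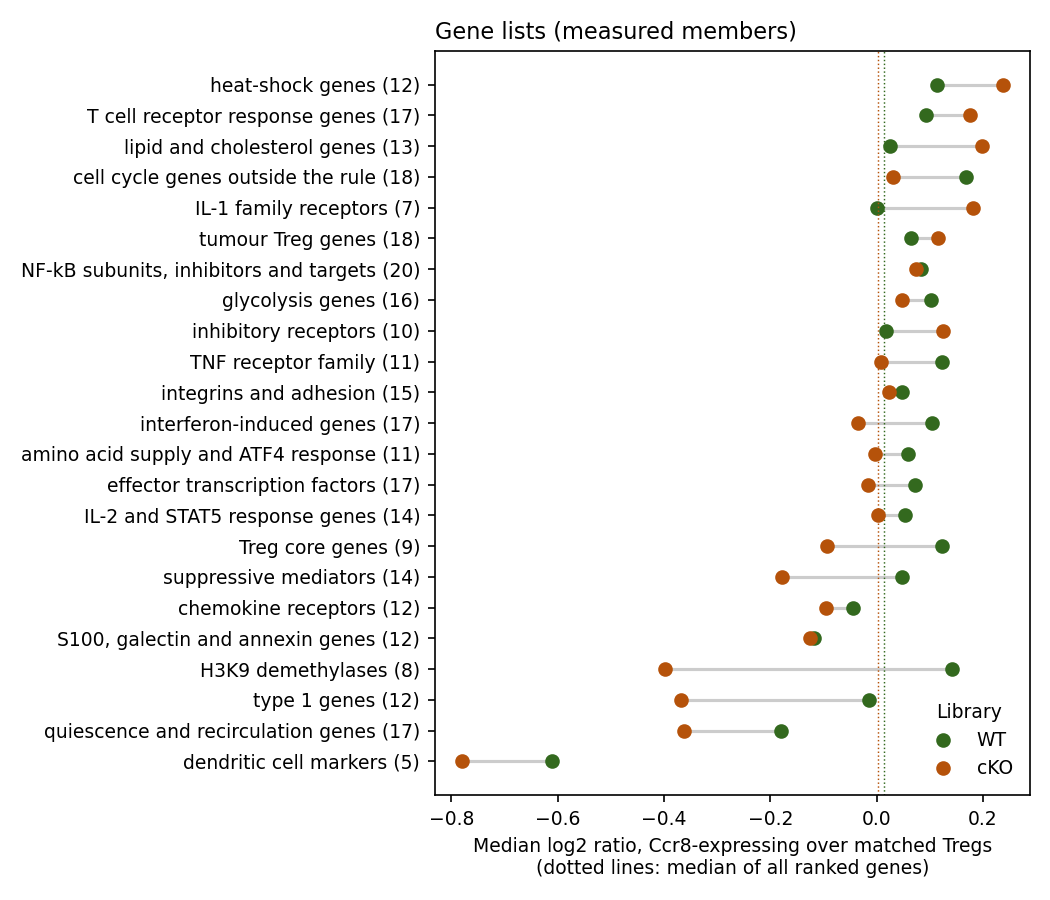
Median log2 ratio of Ccr8-expressing over matched Tregs for each gene list with at least 5 measured members (horizontal axis), with the number measured in brackets, in WT and cKO. Dotted lines are the medians over all 8120 genes, 0.01 in WT and 0.00 in cKO. Dendritic cell markers (-0.61 and -0.78) and quiescence genes (-0.18 and -0.36) lie to the left in both libraries, and few other lists do so. The dendritic cell list rests on 5 measured genes, 4 of them lower in both libraries. Its WT median was -0.02 without matching, and its cKO median was -0.31 without each gene's highest cell.

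Among chemokine receptors, members did not stand apart as a group, with 3 of 12 measured receptors higher and 6 lower in both libraries and medians of -0.04 and -0.09. Ccr6, the CCL20 receptor, was at 28.2 against 15.3 CPM in WT (ratio 1.84, 1.32 to 2.54) and 9.55 against 4.39 CPM in cKO (2.18, 0.760 to 5.94). Ccr4, which shares skin-homing and Treg biology with Ccr8, had ratios of 1.05 (0.736 to 1.47) and 0.844 (0.501 to 1.37). Ccr2, a receptor of inflammatory monocyte chemoattractants, was at 107 against 117 CPM in WT and 235 against 362 CPM in cKO, the latter 0.649 (0.553 to 0.758) of the matched level. Ccr7, the lymph node homing receptor, was at 399 against 452 CPM in WT and 654 against 454 CPM in cKO, so it was lower in WT and higher in cKO members. The WT log2 ratio of -0.18 was 0.08 without matching and 0.31 with at least 2 Ccr8 UMIs per member. After thinning, Ccr7 was found in 29.5% of WT members and 26.3% of matched cells, and in 31.8% and 30.3% in cKO. The ligand Ccl1 was found in 15 of 210 WT and 2 of 98 cKO members, and in 47 of 630 and 2 of 294 matched cells.

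Among adhesion and other receptors, Itgae, the CD103 integrin chain that binds E-cadherin, was at 1.21 times the matched level in WT (0.964 to 1.52) and, at 111 against 69.4 CPM, 1.60 times in cKO (1.23 to 2.07). Pdcd1, the gene of PD-1, had ratios of 1.14 (1.07 to 1.22) in WT and 1.25 (1.03 to 1.5) in cKO. Its cKO log2 ratio of 0.31 was 0.07 without matching and -0.76 with at least 2 Ccr8 UMIs per member. In the last setting the WT log2 ratio of Pdcd1 went from 0.19 to 0.62. Il1rl1, the gene of the IL-33 receptor ST2, was found in 35 of 210 WT and 33 of 98 cKO members, with log2 ratios over matched cells of -0.44 and 0.20. Its cKO over WT log2 ratio in members was 1.32. Of 12 S100, galectin and annexin genes, 7 were lower and 0 higher in both libraries, with medians of -0.12 and -0.13. Lgals3, the gene of galectin 3, was the one of these that differed most at levels above 100 CPM, at 112 against 148 CPM in WT and 148 against 211 CPM in cKO.

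Cells with Mki67 or Top2a had been left out. Of 18 measured cell cycle genes outside the rule, 8 were higher and 2 lower in both libraries, with medians of 0.17 in WT and 0.03 in cKO. The list's summed level in members was 1.08 times that in matched cells in WT (1.03 to 1.13) and 0.923 times in cKO (0.850 to 1.002). Mcm2, Mcm5 and Mcm7 encode subunits of the replicative helicase. Mcm2 was at 16.8 against 9.27 CPM in WT (ratio 1.81, 1.17 to 2.77) and 20.3 against 8.37 CPM in cKO (2.42, 1.20 to 4.82). Mcm5 had ratios of 1.55 (1.12 to 2.12) and 1.75 (0.835 to 3.51), and Mcm7 1.65 (1.16 to 2.33) and 1.5 (0.815 to 2.66), so both cKO intervals include 1. Over the whole Treg gate, cycling cells included, the WT log2 ratios were -0.12 for Mcm2, -0.05 for Mcm5 and -0.09 for Mcm7, and the list median was -0.04. Among heat-shock genes 8 of 12 were higher and 1 lower in both (medians 0.11 and 0.24). Of 12 type 1 genes 2 were higher and 6 lower in both, with medians of -0.02 in WT and -0.37 in cKO. Of 17 interferon-induced genes 6 were higher and 1 lower in both, with medians of 0.10 and -0.04.

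Between libraries, more genes lay past 1.5-fold among members than between members and matched cells within a library, mostly in the direction seen in matched cells. Of 4936 genes averaging 20 CPM or more in members, 405 were at least 1.5-fold higher (8.21%) and 358 lower (7.25%) in cKO. In matched Tregs 250 were higher (5.06%) and 234 lower (4.74%). Matched cells summed to 6580505 UMIs in WT and 2507995 in cKO, against 2200444 and 837803 in members. Counting error is wider in the smaller sums, so these counts cannot show whether the libraries differ more in members than in matched cells. Of the 405 genes 371 had the same sign in matched cells and 157 were also past 1.5-fold there. Of the 358 these counts were 327 and 150. The share of all 4936 genes with the same sign in both sets of cells was not computed, so the sign counts have no background. When UMIs of ribosomal protein and mitochondrial genes were left out of the scaling, the split became 371 higher and 628 lower, so 37.1% of the genes past the fold were higher in cKO in place of 53.1%. That scaling also lets more genes pass the minimum level (5708 against 4920 over the 4 groups of cells). With the first scaling the share was 43.9% at a minimum of 5 CPM and 58.6% at 50 CPM.

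Gzmb, which encodes the cytotoxic protease granzyme B, was at 280 CPM in WT and 2682 CPM in cKO members, a ratio of 9.58 (8.76 to 10.5), and was found in 35.2% and 77.6% of them. In matched cells it was at 303 and 3201 CPM. The checkpoint receptor gene Lag3 was at 64.5 and 202 CPM in members (83.1 and 205 CPM in matched cells), and Socs3, whose product restrains JAK-STAT signals, was at 50.9 and 205 CPM (67.2 and 226). Gpr18, the gene of a G-protein-coupled receptor, was at 7.73 and 40.6 CPM (11.4 and 70.6). Each of these was higher in cKO in both sets of cells.

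Pdcd1 was lower in cKO, at 572 CPM in WT and 198 CPM in cKO members, a ratio of 0.347 (0.293 to 0.408), with 91.4% and 49.0% of members positive. Itga4, an integrin chain of lymphocyte adhesion, was at 223 and 32.2 CPM (0.144, 0.0942 to 0.213), against 225 and 39.5 CPM in matched cells. Cystm1 was at 175 and 37.0 CPM, Lig1, a DNA ligase of replication, at 165 and 38.2 CPM, and the ketone body enzyme gene Oxct1 at 170 and 37.0 CPM. The fractalkine receptor gene Cx3cr1 was at 41.4 and 7.16 CPM. Rel was lower in cKO members (ratio 0.537, 0.466 to 0.616) and Batf higher (1.76, 1.53 to 2.04), in the same directions as in matched cells.

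Other genes at the top of the cKO to WT ranking rested on few cells. Cxcl9, a chemokine gene induced by interferon gamma, was at 6.36 CPM in WT and 177 CPM in cKO members, but in 2 of 210 and 5 of 98 cells. A single cell gave 97.9% of the cKO UMIs of Ccl1, 89.9% of Il1b, 80.2% of Ifitm1, 76.7% of Csf2 and 61.3% of Ifitm6. Without the highest cell of each group the cKO to WT log2 ratio of Ccl1 went from 1.96 to -1.40, and that of Il1b from 2.43 to 0.17. Cxcl3 had 0 UMIs in cKO members and stood at 41.8 CPM in WT members, in 3.81% of cells.

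**Figure D5:**
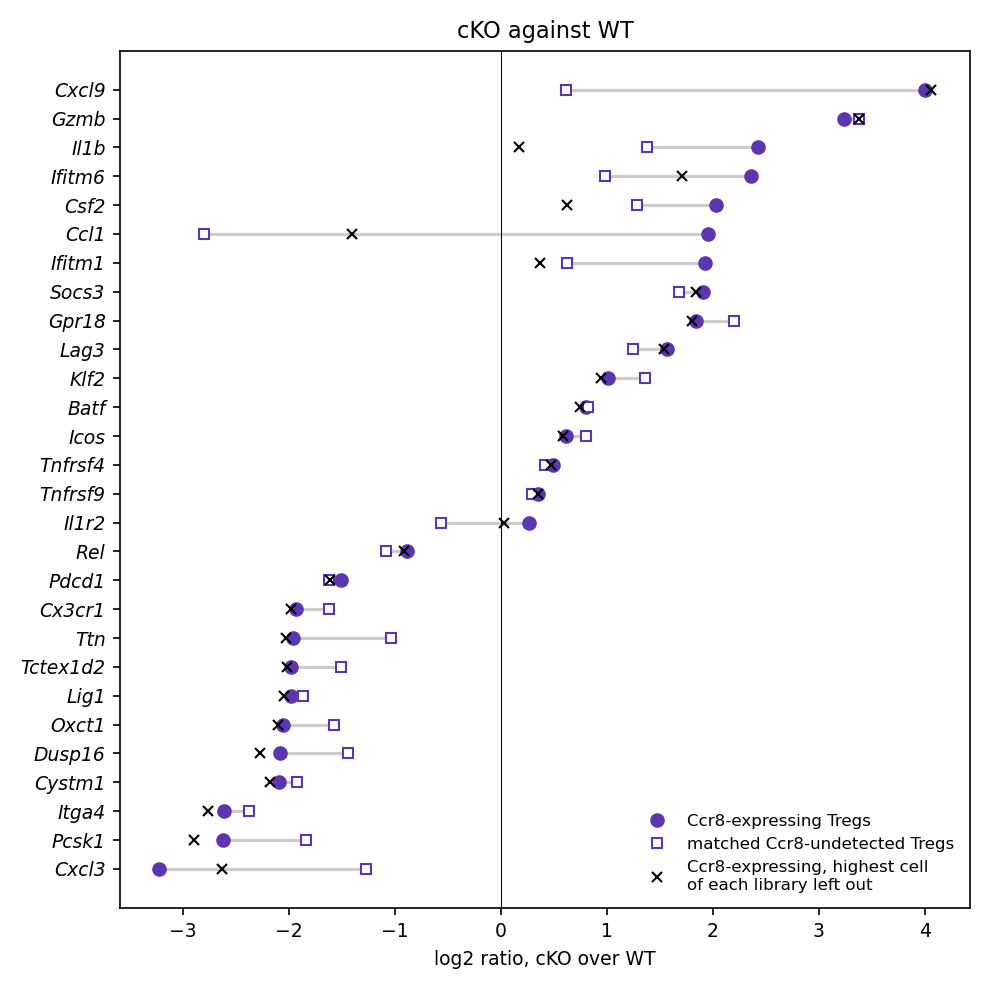
Log2 ratio of cKO over WT (horizontal axis) for 9 of the 10 highest genes and the 10 lowest genes in Ccr8-expressing Tregs and 9 further genes. Filled circles are Ccr8-expressing Tregs, open squares are matched Ccr8-undetected Tregs, and crosses are Ccr8-expressing Tregs without the highest cell of each library. Gzmb (3.24 and 3.38) and Itga4 (-2.62 and -2.37) lie together in both sets of cells, whereas Ccl1 moves from 1.96 to -1.40 without 1 cell per library.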

How the data were processed

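The deposited matrices give unnormalized UMI counts of each gene in each barcode. Per the submitters' processing notes, the authors used Cell Ranger 5.0.1, and the genome build was mm10. Any filter before deposit, doublet removal and the use of strand or of reads in introns are not stated in those notes or the labels. Per the labels' protocols, tumours were digested, Tregs were enriched on a gradient and with magnetic beads, sorted by a fluorescent signal, and put through a 10x Genomics 3' protocol.

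Barcodes with at least 500 genes and under 10% mitochondrial UMIs were kept (3842 WT, 4026 cKO). No doublet caller was run. The members and gene lists were chosen with earlier results of these data known, and the marker lists share that limit. The CD8 gate asked for at least 4 UMIs of Cd8a and Cd8b1, the macrophage gate for at least 20 of Lyz2, C1qa and C1qb and at most 1 of the Cd3 genes. Each member was matched without replacement to 3 Ccr8-undetected eligible Tregs of its library by log total UMIs, members being taken from the deepest to the shallowest. UMIs were summed over cells and expressed as CPM, with a pseudocount of 5 CPM in log2 ratios, which understates differences of low genes. Levels are shares of transcript ends, with no scaling to length. Intervals are 95% exact Poisson, binomial or Clopper-Pearson intervals of counting error. Shares of cells were compared after random thinning to 4100 UMIs. Genes of the rule were left out of rankings and list medians. Named genes were the 15 highest and 10 lowest past 1.5-fold the same way in both libraries (2 and 8 existed), the 10 highest and 10 lowest between cKO and WT members, up to 4 per list, and 19 further genes. Of these, 1 gene is not reported here. Jmjd1c and Xist were added as checks of the labels. The calculation was tested on simulated data with Python 3.11.15, numpy 2.4.6, scipy 1.17.1 and pandas 2.3.3. The simulation drew independent Poisson counts in each cell, with changes larger than 1.5-fold. It therefore does not cover genes whose UMIs lie mostly in single cells, or changes near 1.5-fold. Coordinates were taken from GENCODE annotation of the same build. Alternatives covered the matching, the gates, the Ccr8 minimum, the highest 5% of total UMIs, scaling, pseudocount, filter, fold and thinning depth. Leaving out each gene's highest cell was added after seeing the data. It lowers member to matched ratios somewhat, because members are fewer than matched cells.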

Additional observations from a re-analysis of the deposited data

Results flagged for a closer look

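Among the genes chosen for naming, those are given here whose 95% intervals for the ratio of Ccr8-expressing over matched Tregs lay above 1 in 1 library and below 1 in the other, which held for 6 genes. With 1 library per genotype the difference was not tested, and the values are the cKO log2 ratio minus the WT log2 ratio. The difference was 4.76 for Ccl1, where 1 cKO member held 93 of 95 UMIs and 1 WT matched cell 232 of 433. It was 3.38 for Cxcl9, where 1 WT matched cell held 105 of 194 UMIs and 1 cKO member 76 of 148. It was -2.85 for Ccl4, with 55 of 103 UMIs in 1 WT member. It was -2.50 for Cd209a, found in 1 member of each library. It was 1.38 for Ifitm6, with 19 of 31 UMIs in 1 cKO member. It was 0.70 for Ccr7, the only one of the 6 found in more than 30% of members of both libraries, with 6.27% of WT and 12.8% of cKO member UMIs in the highest cell. The Ccr7 ratio kept its sign in 7 of 11 alternatives in WT and in 11 of 11 in cKO.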

How the results depend on the processing

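No paired analysis was possible because each genotype has 1 library, and for the same reason no replicate could be left out. The number of genes at least 1.5-fold higher in both libraries, 2, became 64 with at least 2 Ccr8 UMIs per member (51 cells in all), 0 without the highest 5% of total UMIs, with means of per-cell CPM and without each gene's highest cell, 1 over the whole Treg gate, at a minimum of 50 CPM and at 2-fold, 4 with no Lyz2, C1q or Cd8 UMI and 7 at a minimum of 5 CPM. The number lower, 8, became 97 with at least 2 Ccr8 UMIs, 21 with 1 matched cell per member, 23 over the whole gate, 15 with ribosomal and mitochondrial genes out of the scaling, 14 with a pseudocount of 1, 20 and 4 at minima of 5 and 50 CPM, 0 at 2-fold and 19 without each gene's highest cell. Between cKO and WT members, 405 higher and 358 lower became 1231 and 920 with at least 2 Ccr8 UMIs, 669 and 855 at 5 CPM, 208 and 147 at 50 CPM and 81 and 86 at 2-fold. The lower count was 220 over the whole gate and 628 under the other scaling. Lists on the same side of all genes in both libraries numbered 16 of 23, 8 with 1 matched cell and 10 with no Lyz2, C1q or Cd8 UMI. Beside the thinned 6.51% and 4.76%, the share with Ccr8 was 12.9% in WT and 7.38% in cKO without thinning, 2.46% and 0.828% for at least 2 UMIs, and 2.85% in cKO thinned to 3000. Of the member to matched log2 ratios past 1.5-fold, those of the genes described above that changed sign follow. Cxcl10 in cKO went to -0.24 without matching, -0.98 with at least 2 Ccr8 UMIs, -0.28 without the highest 5%, -0.54 over the whole gate and -0.0566 without the highest cell, and in WT to -1.18 with at least 2 Ccr8 UMIs and -0.0397 without the highest 5%. With at least 2 Ccr8 UMIs, Il1r2 in cKO was -1.10, Itgae in cKO -0.25 and Cxcl2 in WT 0.41. Il1b in cKO was 0.0509 without matching and 0.51 with no Lyz2, C1q or Cd8 UMI, where Fcer1g in WT was 0.0826. Ly6c2 in WT was 0.25 with 1 matched cell, and Mcm2 in WT was -0.12 over the whole gate. Ccl1 reached 0.65 in WT over the whole gate and -3.01 in cKO with at least 2 Ccr8 UMIs. Ccl4 reached -0.48 in WT and 1.34 in cKO over the whole gate. Cxcl9 reached 0.44 in WT with no Lyz2, C1q or Cd8 UMI and -0.72 in cKO with at least 2 Ccr8 UMIs, where Ifitm6 in cKO was -2.46. Cd209a in cKO reached 0.0023 with no Lyz2, C1q or Cd8 UMI. Causes were not tested, except that higher filters or folds leave fewer genes and the stricter Ccr8 minimum fewer cells. Of 76 gene and list values, WT and cKO values counted separately, 47 kept their sign under all 11 alternatives. Among them were Tnfrsf4, Rel, Batf, Id2, S1pr1, Tcf7 and Ccl5 in both libraries. Depth is lower in cKO, whose members sum to 837803 UMIs.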
